A study of Mus musculus with 14 samples.

Results

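The 4 Notch receptor genes (Notch1, Notch2, Notch3 and Notch4) and the 5 genes for their transmembrane ligands (Dll1, Dll3, Dll4, Jag1 and Jag2) were examined in a list of H3K27me3 sites from mouse fibroblasts. These 9 genes were taken by name from the 21938 protein-coding genes of the GENCODE M21 annotation on the assembled chromosomes of GRCm38. For each gene, sites were counted within 1 kb of any of its annotated transcription start sites (TSSs), in its body and in the body extended by 50 kb on either side. Of the 153983 sites of the list, 139 overlapped one of these extended regions, 30 a gene body and 12 a TSS window.

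H3K27me3 was mapped by ChIP-seq in iMEF cells, immortalised embryo fibroblasts, that carried a lentiviral construct for human ASH2L fused to FKBP12 with the F36V mutation (FKBP-HA2-ASH2L). The floxed endogenous Ash2l had lost exon 4 through Cre-ER in all samples, controls included, and the histone experiments used the clone NG3, so the cells stand for a single clone. The labels give 12 H3K27me3 libraries, 2 from control cells without dTAG and 2 for each of 5 exposures to dTAG, which lasted 30 min, 2 h, 4 h, 8 h or 16 h. Input was sequenced from control cells and from the longest exposure. dTAG-13 is a PROTAC that directs the fusion protein to an E3 ubiquitin ligase. The deposited list combines the sites of all samples as chromosome, start and end, with no value per library, so exposed and control cells were not compared here, no replicate error could be given, and the read depth behind a site is unknown. The list holds no RNA data either, and the fibroblast label could be set only against sites at marker genes. A site lay at a TSS of 3 of 8 fibroblast genes (Col1a1, Vim and Pdgfra, the widest of 437 bp), and at a TSS of 3 of 4 epithelial, 1 of 4 endothelial and 2 of 3 blood cell genes, the widest of 18462 bp at Cd3e. As 31.5% of all protein-coding genes had a site at a TSS, the count for fibroblast genes does not set them apart, and the list gives no check of the label.

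Notch receptors are single-pass membrane proteins that are activated by a ligand on a neighbouring cell. Binding of a Delta-like (Dll) or Jagged (Jag) ligand allows an ADAM protease and then the γ-secretase complex to cut the receptor, and the freed intracellular domain enters the nucleus and acts with the DNA-binding protein RBPJ on target genes such as those of the Hes and Hey families. H3K27me3, which is trimethylation of lysine 27 of histone H3, is set by Polycomb repressive complex 2 and is known for marking developmental regulators that a cell type does not use.

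Sequences of 4 promoters and 2 sites are shown because they carry the contrasts described below. The promoter stretches are the nearest 250 bases before the RefSeq start that contain no annotated exon, read from GRCm38.p6 in the direction of the gene, with CpG dinucleotides in capitals. The stretch of Notch2 has 35 CpGs and no site, that of Notch4 has 4 CpGs and lies partly in a site, and those of Jag1 and Jag2 have 22 and 26 CpGs, with a site over the latter only.
Notch2 (chr3:98013277-98013526, plus strand): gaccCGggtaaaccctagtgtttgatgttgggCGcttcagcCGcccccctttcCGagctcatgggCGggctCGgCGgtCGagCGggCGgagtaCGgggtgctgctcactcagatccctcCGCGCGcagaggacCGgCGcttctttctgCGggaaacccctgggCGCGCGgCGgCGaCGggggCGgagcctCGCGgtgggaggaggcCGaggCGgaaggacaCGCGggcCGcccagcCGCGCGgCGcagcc
Notch4 (chr17:34564018-34564267, plus strand): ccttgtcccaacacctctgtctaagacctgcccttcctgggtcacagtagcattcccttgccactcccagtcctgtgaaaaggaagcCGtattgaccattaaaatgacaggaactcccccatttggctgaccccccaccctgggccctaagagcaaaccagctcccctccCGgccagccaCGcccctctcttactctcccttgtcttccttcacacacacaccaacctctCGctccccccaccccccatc
Jag1 (chr2:137116645-137116894, minus strand): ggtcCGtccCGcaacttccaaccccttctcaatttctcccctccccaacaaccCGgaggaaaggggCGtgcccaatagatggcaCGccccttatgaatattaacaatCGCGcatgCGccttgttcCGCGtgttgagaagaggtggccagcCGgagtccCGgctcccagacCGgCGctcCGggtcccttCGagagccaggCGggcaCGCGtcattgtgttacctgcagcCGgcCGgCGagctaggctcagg
Jag2 (chr12:112929777-112930026, minus strand): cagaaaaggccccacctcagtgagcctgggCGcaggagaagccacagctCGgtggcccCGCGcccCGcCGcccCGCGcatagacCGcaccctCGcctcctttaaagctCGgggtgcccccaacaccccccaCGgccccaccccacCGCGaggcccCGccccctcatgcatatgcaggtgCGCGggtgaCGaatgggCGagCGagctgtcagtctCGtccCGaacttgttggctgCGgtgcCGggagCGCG
The following sequences are the whole 200 bp site upstream of Notch3, which has the smallest width in the list, and the only site in the body of Jag1, which is 209 bp long, lies in an intron and contains no CpG.
Notch3 (chr17:32167824-32168023, minus strand): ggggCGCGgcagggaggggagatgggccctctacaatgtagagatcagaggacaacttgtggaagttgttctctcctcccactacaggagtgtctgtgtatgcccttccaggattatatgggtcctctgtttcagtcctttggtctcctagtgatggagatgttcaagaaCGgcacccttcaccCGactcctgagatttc
Jag1 (chr2:137108866-137109074, minus strand): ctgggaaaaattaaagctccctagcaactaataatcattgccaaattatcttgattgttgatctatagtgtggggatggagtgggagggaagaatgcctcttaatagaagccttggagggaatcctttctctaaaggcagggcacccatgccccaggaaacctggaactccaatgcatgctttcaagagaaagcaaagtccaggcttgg

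A site overlapped the TSS window of 6 of the 9 genes, namely Notch3, Notch4, Dll1, Dll3, Dll4 and Jag2, whereas Notch1, Notch2 and Jag1 had none. Over all protein-coding genes, 31.5% had a site in this window. The site was wide in most of these genes, as 5 of the 9 had a site of at least 5 kb in the window, compared with 8.69% of all protein-coding genes. This threshold was chosen after the widths had been seen. Only Notch3 had a narrower one, of 2165 bp. Of the 50 annotated TSSs of the 9 genes, 25 lay inside a site.

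**Figure D1:**
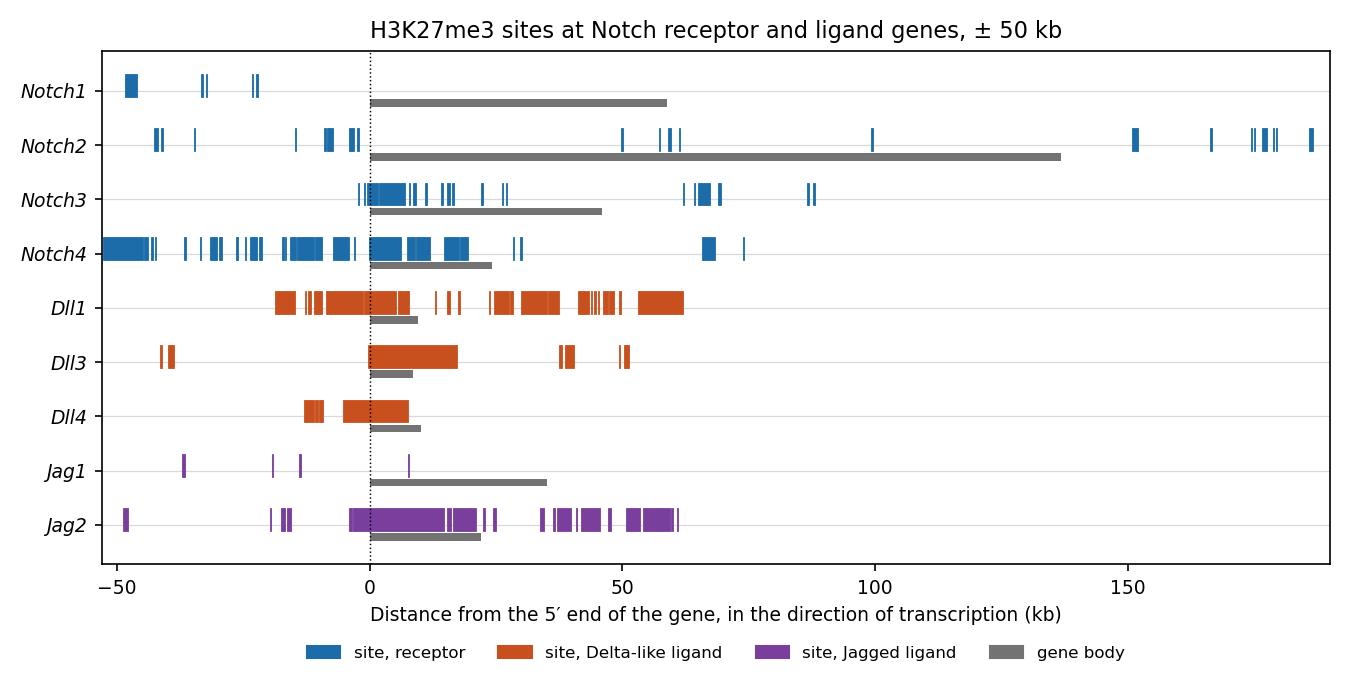
H3K27me3 sites (coloured blocks) at the 9 genes, plotted by distance in kb from the 5′ end of the gene in the direction of transcription, with the gene body as a grey bar. Blocks cross or reach the 5′ end in Notch3, Notch4, Dll1, Dll3, Dll4 and Jag2, and the bodies of Notch1 and Jag1 are empty or nearly so.

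The question whether receptors and ligands differ in this mark was addressed by setting their values side by side. A TSS site was present in 2 of 4 receptors and in 4 of 5 ligands. Sites covered 26.9 kb of the 265.9 kb of receptor bodies, or 10.1%, and 44.0 kb of the 85.5 kb of ligand bodies, or 51.5%. The median covered share of a body was 11.6% for receptors and 77.6% for ligands, compared with 0 for all protein-coding genes, of which 46.7% had any site in the body. Pooled over the bodies of all protein-coding genes the share was 6.81%. At least 50% of the body was covered in 1 receptor (Notch4) and 4 ligands (Dll1, Dll3, Dll4 and Jag2), compared with 9.35% of all protein-coding genes, and this threshold was also chosen after the values had been seen. The order was not clean, since Notch4, Notch3 and, at 1.29%, Notch2 were covered to a larger share than Jag1, at 0.594%. Receptor genes are also longer, with bodies of 24.2 to 136.8 kb, than ligand genes, with bodies of 8.69 to 35.2 kb, and the most covered receptor was the shortest. Genes of a family are not replicates, so no p-value is given for the difference between receptors and ligands.

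**Figure D2:**
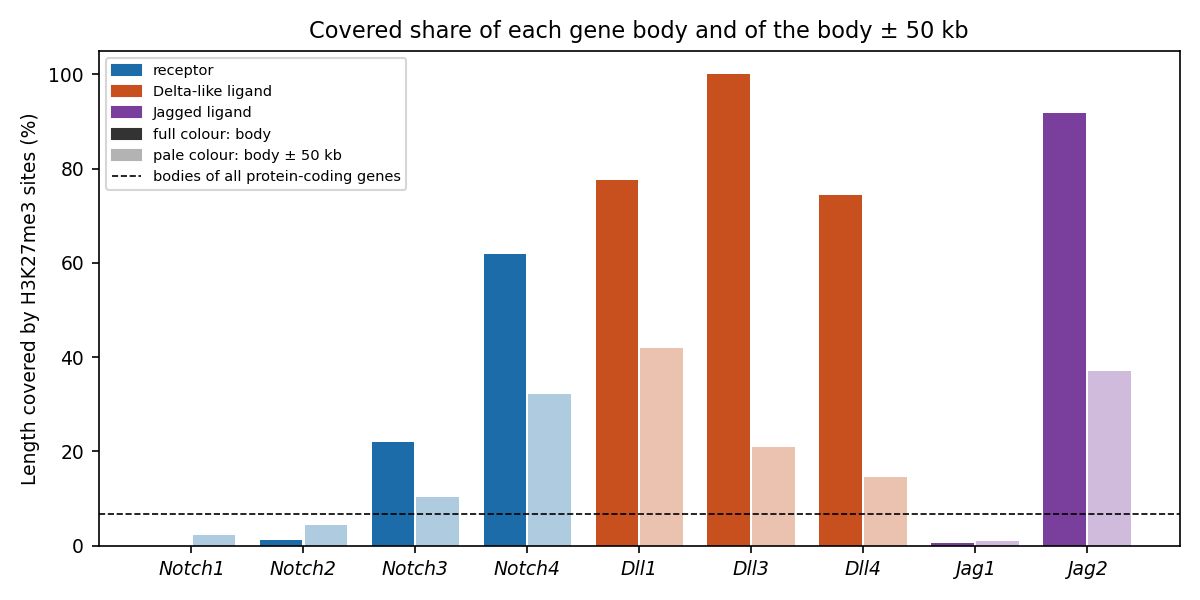
Percentage of the length covered by H3K27me3 sites for each gene body (full colour) and for the body extended by 50 kb on either side (pale colour), with the share for the bodies of all protein-coding genes as a dashed line. The bodies of Dll1, Dll3, Dll4, Jag2 and Notch4 are covered to between 62.0% and 100%, and those of Notch1, Notch2 and Jag1 to at most 1.29%.

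Among the receptors, Notch1, the widely used receptor known from T cell leukaemia, had no site at all in its body (chromosome 2, 26457903 to 26516663, minus strand). The nearest site was 333 bp wide and ended 22134 bp upstream of the annotated 5′ end. The RefSeq start of Notch1 lies 12.8 kb inside this gene model, so the distance from there to the nearest site was 35.0 kb. The 5 sites of the extended region were all upstream, and the widest had 2524 bp. No bases were covered in the 50 kb downstream of the gene.

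Notch2 (chromosome 3, 98013527 to 98150361, plus strand), which is needed in marginal zone B cells and in several organs, had no site at a TSS either. It differed from Notch1 in that narrow sites stood close to the start. The nearest was 406 bp wide and ended 2017 bp upstream of the TSS, and 10 sites of 209 to 736 bp lay within 42.6 kb upstream. In the 136.8 kb of the body there were 5 sites, the widest of 520 bp, with the first 49.7 kb downstream of the 5′ end. Together they covered 1.29% of the body, and 4.38% of the extended region was covered.

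Notch3 (chromosome 17, 32120820 to 32166852, minus strand), the receptor of vascular smooth muscle cells and pericytes, was covered mainly in the first part of its body. A site of 2165 bp reached from 557 bp upstream of the 5′ end to 1607 bp downstream, and the next one, of 5004 bp, from 1.93 to 6.94 kb. Sites farther downstream were at most 628 bp wide, and no site lay between 27.1 kb and the 3′ end. Covered bases made up 22.0% of the body. The 200 bp site shown above, at 972 to 1171 bp upstream, was the other site of the TSS window. When sites closer than 1 kb were joined, 6 sites around the 5′ end formed a stretch of 11.7 kb.

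Notch4 (chromosome 17, 34564268 to 34588503, plus strand), known from endothelial cells, was the receptor with the most coverage. Its first site began 124 bp upstream of the 5′ end, was 6261 bp wide and touched 8 of the 31 annotated exon stretches. Another 4 sites, of 1558 to 2930 bp, followed up to 19.5 kb, and the last 4.70 kb of the gene were free. The body was covered to 62.0%, introns to 68.6% and exons to 48.7%. The 50 kb upstream were covered to 43.5%, in part by a site of 7758 bp over the gene Btnl6, whereas the 50 kb downstream, which hold a row of other genes, were covered to 6.65%. With sites closer than 5 kb joined, the body sites and the upstream sites within 36.7 kb of the 5′ end formed a stretch of 56.3 kb. It was made of 20 sites and did not reach the site over Btnl6.

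**Figure D3:**
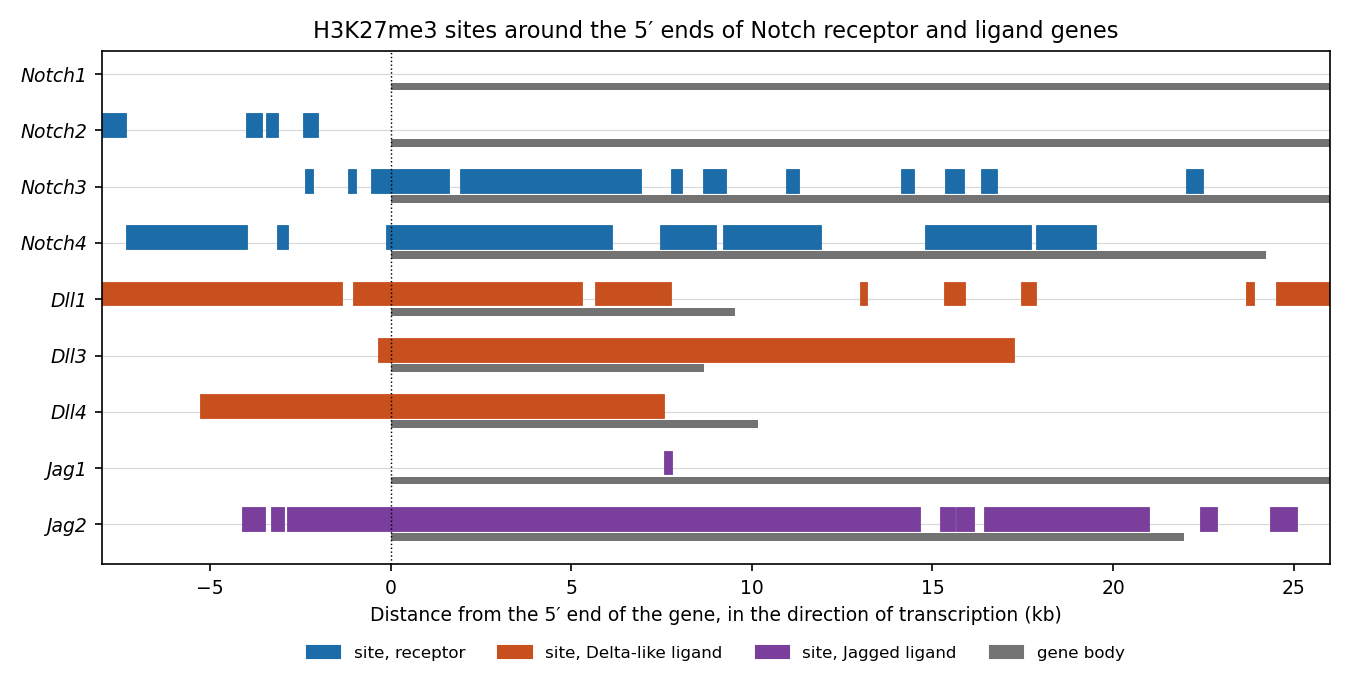
The same sites closer to the 5′ end of each gene, by distance in kb. The left edge of the block at the 5′ end lies at 0.124 kb upstream in Notch4, 0.362 kb in Dll3, 0.557 kb in Notch3, 1.05 kb in Dll1, 2.88 kb in Jag2 and 5.29 kb in Dll4.

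All 3 Delta-like ligands had a wide site over the start. Dll1 (chromosome 17, 15367354 to 15376872, minus strand), a ligand of somite formation and neural progenitors, had a site of 6335 bp from 1048 bp upstream to 5286 bp downstream of the 5′ end, and another of 2103 bp in the body, which together covered 77.6% of it. Of its 6 annotated TSSs, 5 were inside a site. Sites continued on both sides of the gene, with 29.4% of the 50 kb upstream and 47.8% of the 50 kb downstream covered, and the extended region, at 42.0%, was the most covered of the 9. The widest site of the region, of 9008 bp, lay 53.0 to 62.1 kb downstream of the 5′ end and overlapped no protein-coding gene.

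Dll3 (chromosome 7, 28293553 to 28302238, minus strand), a divergent ligand of somite segmentation that is known to inhibit Notch signalling in its own cell, was covered to 100% by a single site of 17614 bp, the widest at any of the 9 genes. This site began 362 bp upstream of the 5′ end, continued 8.57 kb past the 3′ end and took in 94.9% of the neighbouring gene Selenov, which encodes a selenoprotein. The extended region held 7 sites in all, with 4.03% of the 50 kb upstream covered and 23.95% of the 50 kb downstream, where the wide site continued.

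Dll4 (chromosome 2, 119325784 to 119335962, plus strand), the ligand of sprouting endothelium, had a site of 12856 bp that was placed differently, as it reached 5286 bp upstream and ended 7569 bp downstream of the 5′ end. It covered 74.4% of the body and left the last 2.61 kb free. There were 4 further sites, all upstream within 12.9 kb of the 5′ end, and none in the 50 kb downstream.

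The Jagged ligands differed most from each other. Jag1 (chromosome 2, 137081456 to 137116644, minus strand), the ligand affected in Alagille syndrome, had a single site in its body, the intronic 209 bp shown above, which began 7570 bp downstream of the 5′ end and covered 0.594% of the 35.2 kb. Another 3 sites of 222 to 598 bp lay upstream, the nearest ending 13.7 kb from the 5′ end, and 0.970% of the extended region was covered, the lowest share of the 9. Jag2 (chromosome 12, 112907819 to 112929776, minus strand), a ligand of limb and thymus development, was covered to 91.8%. A site of 17531 bp reached from 2878 bp upstream to 14.7 kb downstream of the 5′ end, and 3 further sites of 400, 518 and 4588 bp followed up to 21003 bp. All 10 annotated TSSs of Jag2 were inside a site. The extended region of Jag2 was covered to 37.0%, with more in the downstream 50 kb (36.9%) than in the upstream 50 kb (13.1%).

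A rank among all protein-coding genes describes how far these values lie from the usual. By the covered share of the body, Dll3 was higher than 97.8% of genes, Jag2 than 96.7%, Dll1 than 94.7%, Dll4 than 94.2%, Notch4 than 92.5% and Notch3 than 84.0%. By the covered share of the extended region the order was another one, with Dll1 above 94.1%, Jag2 above 92.2%, Notch4 above 90.0%, Dll3 above 81.7% and Dll4 above 74.5% of genes. Notch2, at 52.3%, Notch1, at 42.4%, and Jag1, at 31.2%, were near or below the middle. A site somewhere in the extended region, which all 9 genes had, was found for 88.0% of all protein-coding genes.

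The promoters were compared by their CpG content in the RefSeq windows of 250 bases before to 50 bases after the start (GRCm38.p6), which were found for all 9 genes, with 2 for Dll1. The ratio of observed to expected CpG was highest for Jag2, at 1.14, followed by Notch2 at 1.04 and Jag1 at 0.959. It was 0.822 and 0.635 for Dll1, 0.706 for Notch3, 0.660 for Notch1, 0.595 for Dll4, 0.573 for Dll3 and 0.214 for Notch4, with a median of 0.384 over 32841 windows. Jag1 and Jag2 thus both had CpG-dense promoters, and the window was covered to 0% in the former and to 100% in the latter. Notch4, the only one of the 9 genes below the median, was covered to 67%. Windows were called CpG-rich when their CpG ratio reached 0.6 and their GC content 50%. By this measure, 6 of the 9 genes were CpG-rich, and 3 of these (Notch3, Dll1 and Jag2) had a site at a TSS. Notch4, Dll3 and Dll4, outside this class, had one as well. The class depends on the window. Over 1 kb around the start, the ratio was 0.583 for Notch3, below the limit, and 0.601 for Dll4, above it. Of the 8297 protein-coding genes with a CpG-rich window, 27.02% had a site at a TSS, and of 8242 others 35.96%.

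**Figure D4:**
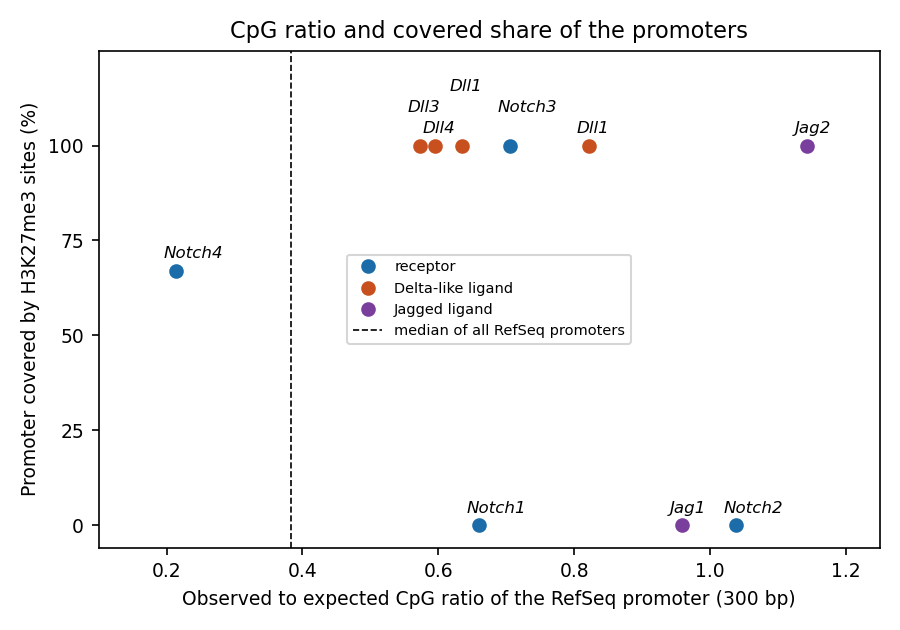
Ratio of observed to expected CpG in the 300 bp RefSeq promoter windows (horizontal axis) and the percentage of the window covered by H3K27me3 sites (vertical axis), with 2 windows for Dll1 and the median ratio of all RefSeq windows, 0.384, as a dashed line. Windows with a ratio from 0.660 to 1.04 stand at 0% (Notch1, Jag1 and Notch2), and others from 0.573 to 1.14 at 100%.

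Motifs were searched in the same windows on both strands. The RBPJ core TGGGAA was in none of the 10 windows of the 9 genes, compared with 25.6% of all windows. The GC box GGGCGG, the motif of Sp factors, was found in Notch1 (5 times), Notch2 (7), Notch3 (4), Dll3 (1), Dll4 (2) and Jag2 (5), and in 35.7% of all windows. It was thus present at genes with and without a site. Over the extended regions, sites had a higher GC content than the sequence between them in all 9 genes, from 51.3% against 51.1% at Notch1 to 54.9% against 48.3% at Dll4. The density of CpGs was 27.3 per kb in and 12.6 outside the sites at Dll4, and 26.6 against 15.4 at Jag2, but it was lower in the sites at Notch1, at 9.30 against 12.7, at Notch4, at 14.8 against 17.8, and at Jag1, at 9.15 against 9.57.

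The other genes of the pathway were described from a list of 39. A TSS site was present in 10 of them, or 25.6%, compared with 31.5% of all protein-coding genes, so the count does not set them apart. With windows of ± 2 kb it was 15, and the share over all genes was not computed for that window. The genes with a TSS site were spread unequally over the roles. Among the target genes of the pathway, 5 of 7 had one. Hes5, a repressor in neural progenitors, lay entirely inside a site of 16359 bp, Heyl had a site of 16535 bp over its 5′ end, Nrarp, a feedback inhibitor, one of 7418 bp that began 33 bp downstream of the TSS, and Hey1 one of 2477 bp. The site at Hey2 was 209 bp wide and 911 bp from the nearest TSS. Hes1, the most widely expressed of the Hes targets, had no site closer than 16339 bp to a TSS, and Hes7 none closer than 7237 bp.

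Of the 12 genes that ubiquitinate or sort ligands and receptors, Dtx1 and Neurl1b (16.7%) had a TSS site, compared with 31.5% of all protein-coding genes. Dtx1, a ubiquitin ligase of Notch receptors, was covered to 80.4% with a widest site of 10322 bp, and Neurl1b, a ubiquitin ligase of ligands, to 98.4% with a site of 13640 bp over its TSSs and one of 29270 bp farther in the body. Among the atypical ligands, Dner had 5 sites in its TSS windows, up to 5588 bp, and Dlk2 had one of 1377 bp. Dlk1 had none within 78.9 kb. All 12514 bp of the gene and 1 kb on either side were repeated at 99% identity or more in a patch sequence of the assembly. Reads can have more than one best position there if the patch is part of the reference, and whether this affected the sites was not tested. For Dner, 11262 of 328383 bp were repeated in this way, and none of the 9 receptors and ligands had such a copy.

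In the shared machinery, sites within 1 kb of a TSS were few, against 31.5% of all protein-coding genes, but sites in the body were not. With windows of ± 2 kb, Poglut1, Psen2, Aph1a and Maml3 also had a site, so the low count depends on the window. A body site was present in 3 of 7 protease genes, 2 of 5 glycosyltransferase genes and 4 of 5 nuclear factors, compared with 46.7% of all protein-coding genes. Of the 7 protease genes, only Adam17 had a TSS site, of 359 bp at the start of a transcript that is not protein-coding, and Adam10, which also cuts Notch receptors, had none. None of the 5 glycosyltransferase genes, which include the Fringe genes Lfng, Mfng and Rfng, had one, although 44.6% of the body of Mfng was covered. None of the 5 nuclear factors had one, and in Rbpj, the DNA-binding partner of all 4 receptors, 2 sites covered 0.309% of 191.2 kb, with the nearest site 9028 bp from a TSS. The pooled covered share of the bodies was 51.9% for target genes, 14.2% for atypical ligands, 9.87% for glycosyltransferases and 8.17% for ubiquitin and sorting genes. It was 0.858% for nuclear factors and 0.516% for proteases, compared with 6.81% for all protein-coding genes. As members of a role are few, these shares are a description.

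**Figure D5:**
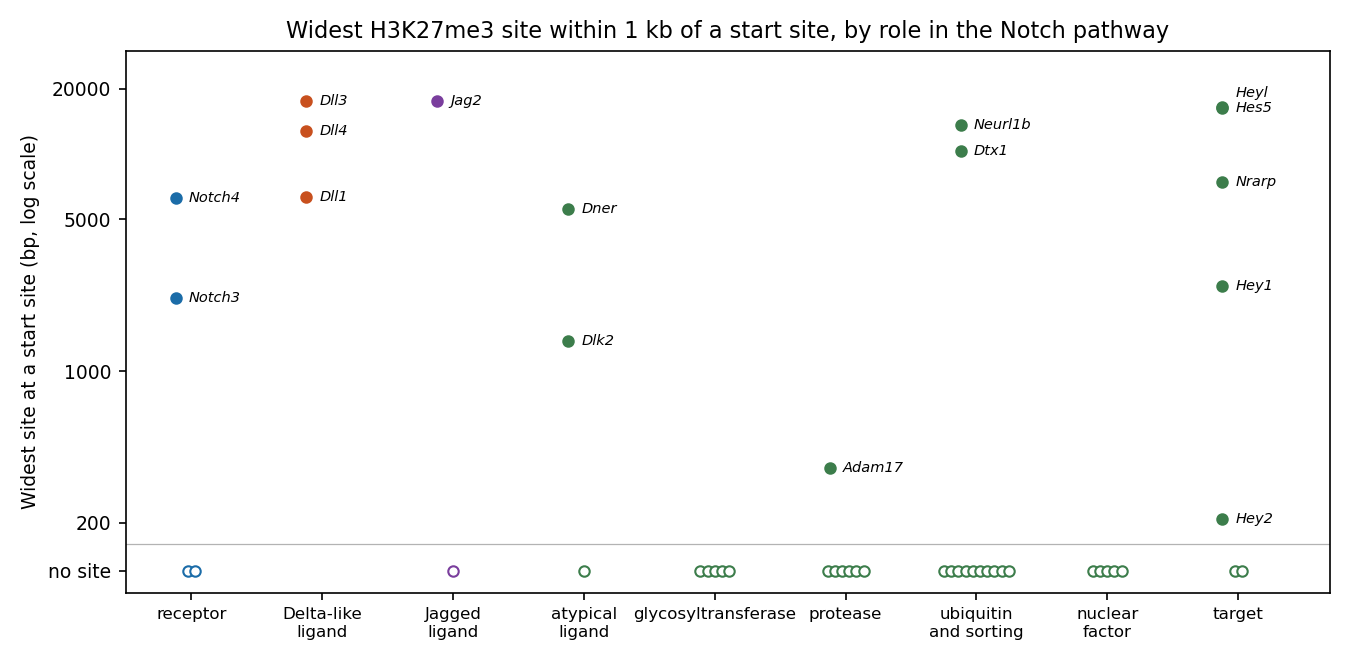
Width in bp (log scale) of the widest H3K27me3 site within 1 kb of a TSS for each gene of the pathway, grouped by role, with open circles below the line for genes without such a site. Filled points above 5000 bp stand in the receptor (Notch4), Delta-like, Jagged (Jag2), atypical ligand (Dner), ubiquitin and sorting (Neurl1b and Dtx1) and target columns, and none in the glycosyltransferase, protease and nuclear factor columns.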

How the data were processed

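H3K27me3 ChIP-seq libraries of iMEF cells were prepared and sequenced by the authors. Reads were trimmed with Trim Galore, aligned with BWA to mm10 (GRCm38.p6), filtered with samtools following ENCODE, and replicates were merged with Picard. MACS was used to call broad peaks (MACS2 in the submitters' processing notes). The deposited list gives positions of sites over all samples. Thresholds, versions and the way in which peaks of the samples were combined are not given in the sources used here, and neither is the depth after filtering. As all samples share one list, more and deeper libraries can lengthen it, and a missing site does not show that the mark is missing.

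Start positions were read as counted from 0 (the smallest width is then 200 bp) and are printed as counted from 1. Overlaps of at least 1 bp were counted with GENCODE M21, an earlier release than the study's, in Python 3.11.15. No site passed a chromosome end. Sequences were read with pysam 0.24.0, RefSeq promoters were matched by symbol (16539 protein-coding genes), and patch copies of at least 1 kb at 99% identity were found with minimap2 2.31-r1302. The interval functions were tested on simulated data.

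The genes, lists, roles and thresholds were chosen with earlier results of these data known. Named are the 9 genes, pathway genes with a TSS site, and Rbpj, Hes1, Hes5 and Hey1, as well as neighbours under the widest site of a region. Others were named after their values had been seen. No values per library were at hand, so no groups were tested. Alternatives were other site widths, joined sites, other windows and flanks, start sites of protein-coding transcripts, site centres and exons.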

Additional observations from a re-analysis of the deposited data

How the results depend on the processing

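No paired analysis was possible because sites of all samples stand in one list without a value for any of them, which also prevented leaving out a replicate. The count of receptors and ligands with a TSS site was 6, of the same genes, in all alternatives but one. With the centre of the site inside the window it was 5, without Dll4. Over the 27 alternatives tried for counts, each count lay within 1.5 times its value. The pathway count ranged from 7, with site centres, to 15, with windows of ± 2 kb. Covered shares were taken as moved outside a 95% Wilson interval over bases, which is narrow because neighbouring bases are not independent. By this rule the receptor share and the ligand share moved in every alternative. The receptor share was 8.76% with only sites at least 500 bp wide, 8.14% with at least 1 kb, 11.6% and 17.5% with sites closer than 1 kb or 5 kb joined, and 14.2% over exons. The ligand share was 50.8%, 50.1%, 52.9%, 54.0% and 57.8% in the same order, above the receptor share throughout. With sites closer than 5 kb joined, the covered share of the body was 3.66% for Notch2, 47.6% for Notch3 and 80.6% for Notch4. With only sites at least 500 bp wide it was 0.38% for Notch2 and 0% for Jag1, and with at least 1 kb it was 0% for both. The unknown depth limits what a missing site shows.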

Other observations

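Of 29 protein-coding genes that neighbour the receptors and ligands in the extended regions, 7 had a TSS site, which is no result about the neighbours, as 31.5% of all protein-coding genes had one. These 7 were named here after their values had been seen, apart from Selenov and Btnl6. Selenov shared the 17614 bp site of Dll3, and Btnl6, a butyrophilin-like gene, had a site of 7758 bp that also was the widest of the Notch4 region. Prrt1, on the far side of Notch4, had one of 2615 bp, and Pbx2, a homeobox gene 2762 bp from Notch4, had 2 of at most 283 bp. Fam120b, next to Dll1, had one of 3782 bp while 0% of its body was covered. Near Jag2, Btbd6 had one of 990 bp and Gpr132 one of 272 bp.

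The remaining 22 neighbours had none. They include Sec16a and Inpp5e near Notch1, Adam30 near Notch2, Ephx3 near Notch3, Timm50, Supt5 and Rps16 near Dll3, Vps18, Chac1 and Ino80 near Dll4, Slx4ip near Jag1 and Nudt14 near Jag2. The body of Timm50 lies 3277 bp from that of Dll3, and the body of Nudt14 4514 bp from that of Jag2. These gaps are between gene bodies, and the distance from the wide sites to the TSSs of these neighbours was not measured.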
